A study of Mus musculus with 4 samples.

Results

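The replication-dependent histone genes encode the bulk of the histone proteins that package newly made DNA. They were taken as every gene of the deposited RNA-seq table whose symbol is H1f1 to H1f5 or begins with H2ac, H2bc, H3c or H4c and a digit, which gave 49 of 16673 genes. There were 5 H1, 12 H2A, 13 H2B, 8 H3 and 11 H4 genes, and H2ac14 and H2ac5-ps are pseudogenes in RefSeq. The RNA came from lineage-negative (Lin–) bone marrow cells of 2-month-old mice, the stem and progenitor fraction that remains once mature blood cells are taken out by their surface markers. The 2 mice labelled cKO carried a Tie2 Cre allele and floxed Tet3 (genotype Tie2+/cre; Tet3F/F), and the 2 mice labelled control carried floxed Tet3 alone (Tet3F/F). Tie2 is active in endothelial cells and in early blood cells, so Cre is not limited to adult Lin– cells. TET3 oxidises 5-methylcytosine in DNA, and the comparison asks which transcripts differ when its gene is targeted.

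Core histones form the particle around which DNA is wound, H2A pairing with H2B and H3 with H4, while the linker histone H1 binds the DNA entering and leaving it. Cells make most of their histone mRNA in S phase. These mRNAs end in a stem-loop instead of a poly(A) tail, are cleaved by the U7 snRNP, are bound by the stem-loop binding protein SLBP and are degraded when replication ends. Some of these genes also give transcripts with a poly(A) tail, mainly in cells that have left the cycle. The sources used here do not say whether RNA was selected by its poly(A) tail before sequencing. Most of the genes lie in clusters, 46 on chromosome 13 and 3 (H2ac20, H2bc21 and H4c14) on chromosome 3.

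RefSeq promoters (GRCm38.p6) were found for 42 of the 49 genes, and the 150 bases before the start of the gene with the most counts in each class, among those with a promoter entry, are given 5′ to 3′. They are shown as 1 example of each class. Capitals mark exact matches, on either strand, to 4 motifs: the TATA box was searched as TATAAA and the CCAAT box as CCAAT. The octamer, which the factor OCT1 binds, was searched as ATTTGCAT. The H1 box, an element of linker histone promoters, was searched as AAACACA.
H1f2, chr13:23738657-23738806, plus strand: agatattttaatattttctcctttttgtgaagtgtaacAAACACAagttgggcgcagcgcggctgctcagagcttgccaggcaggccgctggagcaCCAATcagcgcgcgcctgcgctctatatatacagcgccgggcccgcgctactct
H2ac8, chr13:23571221-23571370, minus strand: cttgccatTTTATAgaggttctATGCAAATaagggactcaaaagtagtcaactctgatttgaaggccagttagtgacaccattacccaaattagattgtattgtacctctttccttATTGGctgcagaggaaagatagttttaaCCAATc
H2bc11, chr13:22043048-22043197, plus strand: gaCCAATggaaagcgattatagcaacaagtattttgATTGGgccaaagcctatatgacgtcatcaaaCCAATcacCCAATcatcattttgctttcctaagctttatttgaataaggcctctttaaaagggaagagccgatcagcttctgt
H3c3, chr13:23745522-23745671, minus strand: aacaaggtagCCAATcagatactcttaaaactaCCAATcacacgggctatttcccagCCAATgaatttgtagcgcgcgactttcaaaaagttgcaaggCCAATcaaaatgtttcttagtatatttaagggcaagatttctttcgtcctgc
H4c9, chr13:22041363-22041512, minus strand: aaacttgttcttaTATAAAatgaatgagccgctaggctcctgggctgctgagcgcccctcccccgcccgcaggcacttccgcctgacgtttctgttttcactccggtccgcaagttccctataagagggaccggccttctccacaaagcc
In the 250 bases before the start, the CCAAT letters were found for all 5 H1, 10 H2A, 11 H2B and 6 H3 genes with a promoter but for 2 of 10 H4 genes, against 34.5% of 27025 promoters of all genes. AAACACA was found for 4 of 5 H1 genes, 1 H2A gene and 1 H2B gene (6.22% of all promoters). The octamer was found for 5 of 10 H2A and 4 of 11 H2B genes and for none of the H1, H3 and H4 genes (1.61% of all promoters). TATAAA was found for 24 of 42 (12.97% of all promoters). The window of H2ac8 reaches most of the way to H2bc8, whose start is 180 bases away on the other strand. In 6 such pairs of H2A and H2B genes the starts lie 164 to 249 bases apart. Their windows of 250 bases overlap, so 1 match can count for both genes, and the H2A and H2B counts are not separate. No matches overlap in the sequences shown, and a match describes letters only.

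Counts were low for most of these genes. The mean over the 4 libraries was below 10 normalized counts (reads divided by the library's size factor) for 1 gene (H2ac22, not tested), between 10 and 50 for 35 and at least 50 for 13, and the median gene of the table had 633. No histone gene was at 0 in any library, and 22 of the 196 values rested on fewer than 10 reads. Per kb of coding length in GENCODE M21, H4c9 had the highest mean (2485 normalized counts per kb), before H1f2 (1203), H2bc4 (1104), H2bc21 (635) and H2bc11 (284). The lowest among coding genes was 24.7 per kb, for H2ac22. H4c9, H1f2, H2bc4 and H2bc21 together held 58.2% and 56.4% of all histone counts in the libraries labelled cKO, and 58.8% and 53.0% in those labelled control. Many of the genes share sequence. Of the 48 genes matched to GENCODE transcripts, 38 share an unbroken run of at least 150 bases with another gene of the family. That is the length of 1 read, so reads may be split between genes or lost. Sums over a class are given beside single genes. The longest run, 450 bases, is shared by H1f4 and H2bc6, which are of different classes, so class sums do not cover it.

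**Figure D1:**
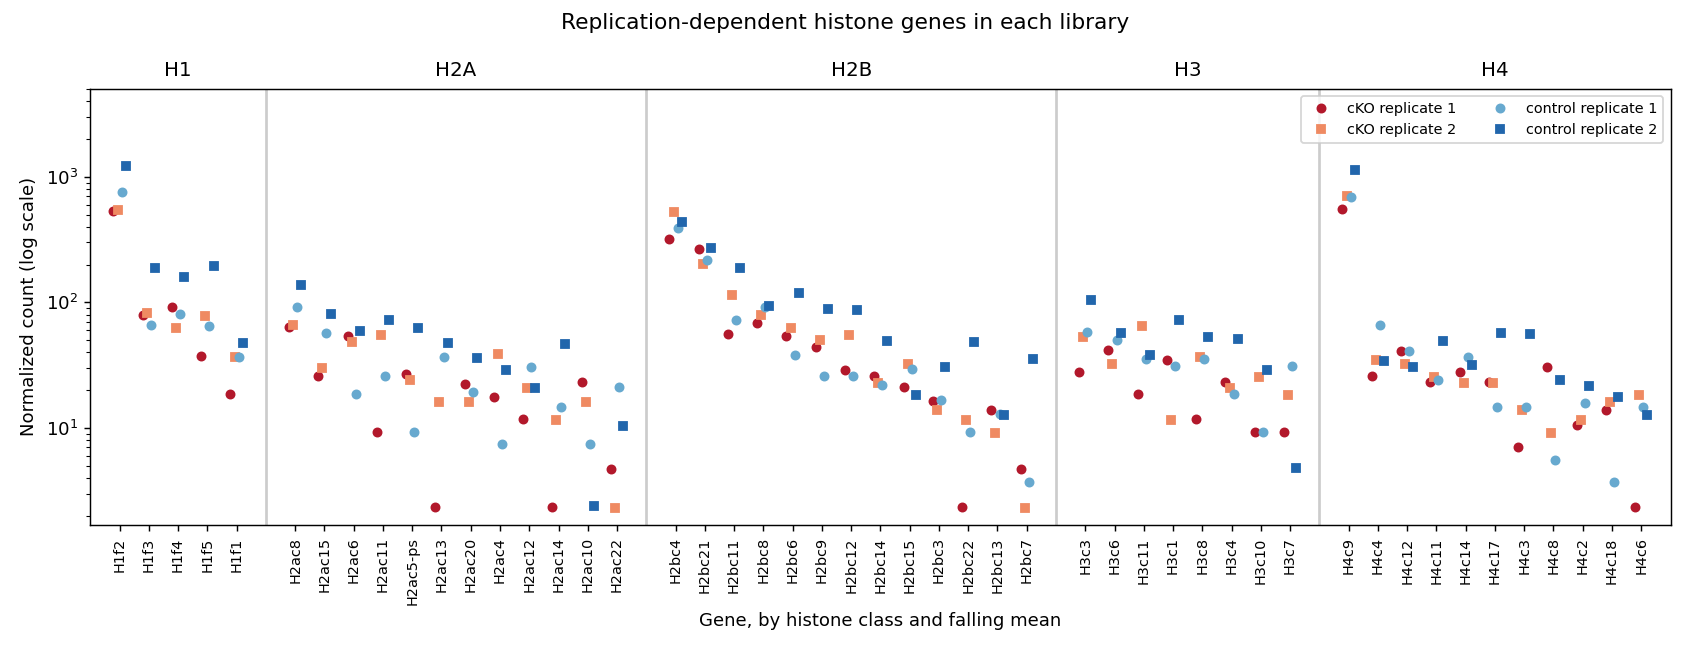
Normalized counts (log axis) of the 49 histone genes, ordered by class and falling mean, with 1 point per library (cKO in red tones, control in blue tones). Control replicate 2 is the highest of the 4 libraries for 35 genes.

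The libraries held 28845037 and 30020188 reads in genes for cKO replicates 1 and 2, and 39199593 and 46673855 for control replicates 1 and 2. Tet3 itself had 6400 and 5084 normalized counts in libraries labelled cKO and 5056 and 6593 in those labelled control. The table has 1 value for the whole gene, so it checks neither genotype nor labels. Xist had at least 48951 normalized counts in both libraries labelled cKO and at most 9.57 in those labelled control, and Ddx3y, Eif2s3y, Kdm5d and Uty had 0 reads in both labelled cKO, so genotype and sex cannot be told apart. Stem and progenitor markers such as Kit (14050.5 and 12478 in cKO, 10915 and 11537 in control) were present in all libraries, and of the markers of other cell types only Igll1 was at 0 in any. The median log2 fold change was 1.63 for 11 T and NK cell markers, 0.55 for 9 B cell, 0.96 for 8 plasma cell, -1.64 for 12 erythroid, -0.46 for 10 granulocyte and monocyte and -0.61 for 9 stromal markers, with 0 passing in any list. These medians became, without control replicate 2, 1.93, 1.05, 0.55, -0.76, -0.84 and -0.46, in the same order. Control replicate 2 stood apart. The 13 mitochondrial protein genes summed to 3039444 normalized counts in it, against 340995 to 424041 in the other libraries, the 12 erythroid markers to 96186 against 16373 to 45092, and the 13 stem and progenitor markers to 147431 against 321144 to 412058. A sum rests mostly on its largest genes, and 4 of the 13 stem and progenitor markers were highest in control replicate 2. The median log2 fold change of these 13 was 0.24, and 0.28 without that library. The part of these sums in the results below was not tested.

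Histone RNA was lower on average in the libraries labelled cKO in every class (for H2B only with control replicate 2 included), no single gene passed the test, and most of the difference came from control replicate 2. The 49 genes summed to 2890 and 3501 normalized counts in the libraries labelled cKO, and to 3499 and 5756 in those labelled control. The summed means were 3195 ± 431 in cKO and 4628 ± 1596 in control (SD, n = 2 each), a log2 ratio of -0.53. Replicate 1 labelled cKO lay below all others, replicate 2 labelled cKO was level with control replicate 1, and control replicate 2 lay above all others. Without control replicate 2 the log2 ratio was -0.13, and without control replicate 1 it was -0.85. In bulk RNA, fewer cells in S phase and less histone RNA per cell cannot be told apart.

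As shares of all reads, the histone genes took 85.8 and 101 per 1000000 reads in the libraries labelled cKO (Wilson 95% intervals 82.5 to 89.3 and 98.0 to 105). In those labelled control they took 96.7 and 155 per 1000000 reads (93.7 to 99.8 and 151 to 158). The intervals cover counting error only and take reads as independent. The gap between control replicate 2 and the others is far wider than these intervals.

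Of the 48 histone genes tested, 0 passed limma over all genes (Benjamini-Hochberg adjusted p under 0.05, smallest adjusted p 0.76), where 0.0723% of 16598 genes passed. At an unadjusted p under 0.05, 2 were lower (H1f2 and H2ac13; 2.61% of all tested genes were lower at that level) and 0 were higher (3.49% of all). On the recovered reads, 0 of the 47 tested passed with edgeR (smallest adjusted p 0.78, 0.0728% of all genes passing). With DESeq2, 0 of the 44 that had an adjusted p passed (smallest 0.36, that of H1f2, 0.686% of all genes passing). In limma the log2 fold change was below 0 for 39 and above 0 for 9, with a median of -0.48, against a median of 0.01 over all genes tested. Each cKO value was below each control value for 14 of the 48 (29.2%), where 19.5% of all tested genes were, and above both for 1 (19.2% of all genes). A mean of 10 to 100 held 42 of the histone genes. Among all 4942 tested genes in that range, 14.4% were below both control values, and the median log2 fold change was 0.11.

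Control replicate 2 was the highest of the 4 libraries for 35 of the 49 genes (71.4%), against 34.0% of all genes tested and 33.4% of the 4942 with a mean of 10 to 100. Without it, 27 histone genes lay below 0 and 18 above among the 45 that still passed the filter, and the median was -0.14. Without control replicate 1 the median was -0.94.

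**Figure D2:**
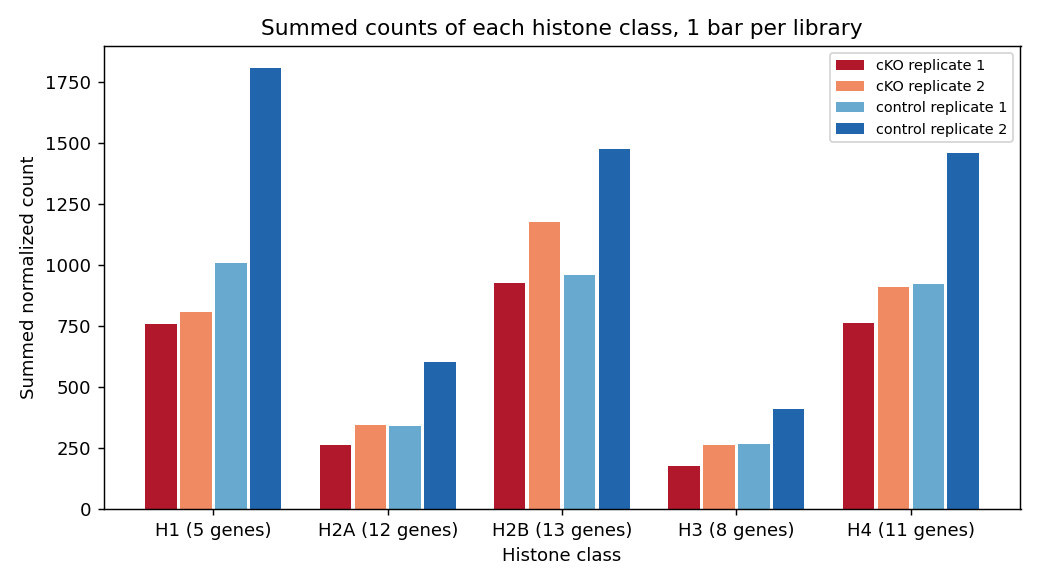
Summed normalized counts of the members of each histone class, with 1 bar per library (cKO left, control right). Control replicate 2 is the tallest bar in every class, and for H1, H3 and H4 both cKO bars also lie below control replicate 1. As shares of all reads, not shown, H3 and H4 of cKO replicate 2 lie above control replicate 1.

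The 5 linker histone H1 genes summed to 760.0 and 808 normalized counts in the libraries labelled cKO and to 1007 and 1807 in those labelled control, so the groups did not overlap. The log2 ratio of the sums was -0.84, and -0.36 without control replicate 2. All 5 genes had log2 fold changes below 0 (median -0.66, and -0.25 without control replicate 2), and all 5 were highest in control replicate 2. The share of H1 in all histone counts was 26.3% and 23.1% in the libraries labelled cKO, against 28.8% and 31.4% in those labelled control.

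H1f2, the gene with the most counts among the H1 genes of this set, accounted for most of that class. It had 533 and 549 normalized counts in libraries labelled cKO, against 759 and 1219.5 in those labelled control. The groups did not overlap, and the counts rested on 457 and 478 reads in cKO, against 822 and 1529 in control. The log2 fold change was -0.83 (SE 0.28, 95% interval -1.49 to -0.17), which did not pass (limma, Benjamini-Hochberg adjusted p = 0.76). It was -0.49 without control replicate 2.

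The other linker genes overlapped between groups, apart from H1f1. H1f5 had 37.4 and 78.1 normalized counts in libraries labelled cKO and 64.6 and 194 in those labelled control (log2 fold change -1.04, SE 0.66), and the value was -0.25 without control replicate 2 and -0.52 without cKO replicate 1. H1f3 had 79.4 and 81.6 in cKO and 65.6 and 187 in control (-0.46, SE 0.57), and its value turned to 0.29 without control replicate 2. For H1f4 the counts were 91.1 and 62.0 in cKO and 81.2 and 159.5 in control (-0.59, SE 0.51). Without control replicate 2 the value of H1f4 was -0.11. The groups overlapped for these 3 genes. H1f1, with 18.7 and 36.8 in cKO against 36.9 and 47.9 in control, did not overlap, though 2 of its values nearly touched (-0.66, SE 0.66, and -0.19 without cKO replicate 1).

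H2A genes went both ways. The class summed to 264 and 346 normalized counts in the libraries labelled cKO and to 341 and 603 in those labelled control, a log2 ratio of -0.63, and -0.16 without control replicate 2. Of 11 tested, 7 were below 0 and 4 above, with a median of -0.66, and -0.10 without control replicate 2. The values ranged from -2.51 to 1.93. In 5 of the 11 (45.5%) both cKO values were below both control values, against 19.5% of all tested genes, and in 1, H2ac10, above (19.2% of all).

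H2ac8 had 64.2 and 66.6 normalized counts in libraries labelled cKO, against 92.3 and 136 in those labelled control (log2 fold change -0.77, SE 0.46, and -0.49 without control replicate 2). H2ac15 had 25.7 and 29.9 in cKO, against 57.2 and 81.4 in control (-1.27, SE 0.57), and kept -1.02 without control replicate 2. Neither gene overlapped between groups. H2ac6 went the other way, with 53.7 and 48.3 in cKO against 18.5 and 59.0 in control (0.60, SE 0.70), and its sign turned to -0.21 without control replicate 1. The extremes were low genes, named after their values were seen. H2ac13 had 2 and 14 reads in the libraries labelled cKO, against 40 and 60 in those labelled control (log2 fold change -2.51, SE 0.98, and -1.33 without cKO replicate 1). Exact Poisson 95% intervals of the cKO counts were 0.242 to 7.22 and 7.65 to 23.5, which take reads as independent. H2ac10 had 23.3 and 16.1 normalized counts in cKO and 7.39 and 2.39 in control (1.93, SE 1.01, and 1.28 without control replicate 2).

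The H2B class summed to 926 and 1175 normalized counts in the libraries labelled cKO and to 959 and 1476 in those labelled control, a log2 ratio of -0.21. Without control replicate 2 the ratio was 0.13, so the direction of this class turned. The share of H2B in all histone counts was 32.03% and 33.6% in the libraries labelled cKO, against 27.4% and 25.6% in those labelled control, the reverse of H1. Class shares add up to 100% in each library, so a lower share of 1 class raises others. The H2B share rests in large part on H2bc4 and H2bc21, whose counts are given below, and need not hold for the other H2B genes. Of 13 tested, 12 were below 0 (median -0.25) with all libraries, and 4 of 11 without control replicate 2 (median 0.09).

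H2bc4 and H2bc21, the H2B genes with the most counts, had fold changes near 0. H2bc4 had 321 and 520.4 normalized counts in libraries labelled cKO and 393 and 434 in those labelled control (log2 fold change -0.02, SE 0.32, 95% interval -0.75 to 0.72). H2bc21 had 268 and 201 in cKO and 219 and 271 in control (-0.07, SE 0.33, 95% interval -0.84 to 0.71). The groups overlapped for both genes. H2bc11 had 56.0 and 115 in cKO and 72.0 and 187 in control (-0.53, SE 0.61), and 0.16 without control replicate 2. In H2bc7 (named after its values were seen) 44 of 54 reads came from control replicate 2.

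H3 genes summed to 177 and 262 normalized counts in the libraries labelled cKO and to 269 and 411 in those labelled control, a log2 ratio of -0.63, and -0.29 without control replicate 2. These sums did not overlap between groups, but shares of all reads did. H3 genes took 7.59 per 1000000 reads in cKO replicate 2, against 7.42 in control replicate 1. The log2 fold change was below 0 for 7 of 8, with a median of -0.50, and leaving out control replicate 2 gave -0.51 and leaving out control replicate 1 gave -1.01. H3c3 had 28.0 and 52.8 normalized counts in libraries labelled cKO, against 58.2 and 105 in those labelled control (-1.004, SE 0.60), and the value was -0.58 without control replicate 2 and -0.56 without cKO replicate 1. H3c6 had 42.0 and 32.2 in cKO, against 49.9 and 57.4 in control (-0.53, SE 0.56, and -0.34 without cKO replicate 2). These 2 genes did not overlap between groups. H3c11 did, with 18.7 and 64.3 in cKO and 35.1 and 38.3 in control (-0.07, SE 0.74).

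H4 genes summed to 763 and 910 normalized counts in the libraries labelled cKO and to 923 and 1459 in those labelled control, a log2 ratio of -0.51, and -0.14 without control replicate 2. Here too the sums did not overlap between groups, but shares of all reads did. H4 genes took 26.4 per 1000000 reads in cKO replicate 2, against 25.5 in control replicate 1. Of 11 tested, 8 were below 0 and 3 above (median -0.49, and -0.16 without control replicate 2). H4c9 held most of the class, with 558 and 703 normalized counts in the libraries labelled cKO and 686 and 1125 in those labelled control (log2 fold change -0.49, SE 0.30). Replicate 2 labelled cKO lay above control replicate 1 for this gene, so the groups overlapped, and the value was -0.13 without control replicate 2 and -0.32 without cKO replicate 1. H4c4 had 25.7 and 34.5 in cKO and 66.5 and 34.3 in control (-0.67, SE 0.64), and here control replicate 1 was the high library. Leaving that library out gave -0.20, and leaving out control replicate 2 gave -1.13. H4c12 had 40.9 and 32.2 in cKO and 40.6 and 30.3 in control (0.05, SE 0.61). The share of H4 in all histone counts stayed between 25.3% and 26.4% in the 4 libraries.

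**Figure D3:**
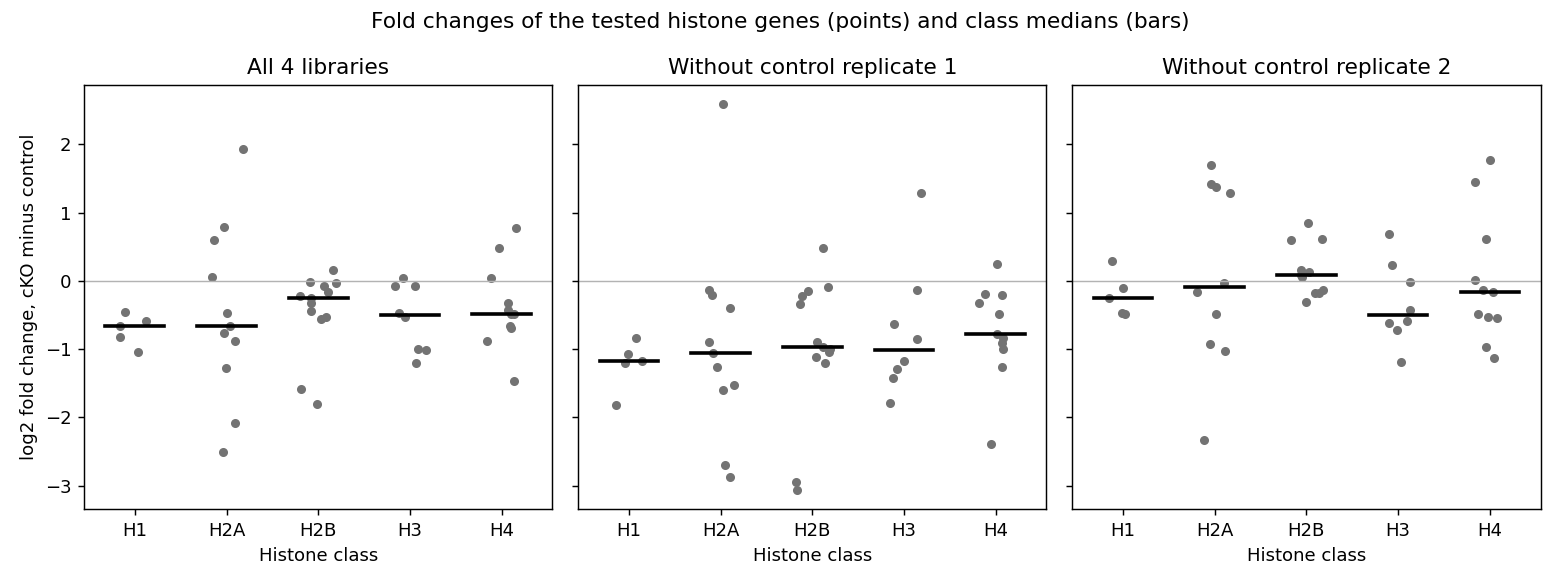
Log2 fold changes (cKO minus control) of the tested histone genes by class, with all 4 libraries and without each control library; points are genes and bars are class medians. Class medians lie between -0.66 and -0.25 with all libraries, between -1.17 and -0.78 without control replicate 1 and between -0.51 and 0.09 without control replicate 2.

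H2A and H2B genes that start side by side did not always have like values. Of 6 pairs on opposite strands with starts at most 400 bases apart, 5 had both genes tested, and 4 of these had the same sign of log2 fold change. H2ac8 and H2bc8, whose sequence between the starts is printed in part above, had -0.77 and -0.32 (H2bc8 had 68.9 and 79.3 normalized counts in cKO, against 91.4 and 93.3 in control). In H2ac15 and H2bc15, 164 bases apart, the values were -1.27 and 0.15 (H2bc15 had -0.18 without control replicate 2 and -0.14 without cKO replicate 2), and H2bc15 had 21.01 and 32.2 in cKO against 29.5 and 18.3 in control. No difference within a pair was tested.

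The genes that make and process histone mRNA differed little as a list. The list of transcription, 3′ processing and decay factors summed to 76128 and 70996 normalized counts in the libraries labelled cKO and to 73856 and 72765 in those labelled control. Of its 20 members 0 passed in either direction, 12 were above 0 and 8 below, and the median log2 fold change was 0.06. The smallest p-values were those of Lsm11, a subunit of the U7 snRNP, of Zfp473, which binds that particle, and of Casp8ap2 (FLASH), which acts with it in cleavage. Lsm11 had 1153 and 1134 normalized counts in cKO, against 861 and 826 in control (0.44, SE 0.21), and Casp8ap2 had 2985 and 2538 in cKO, against 2307 and 1842 in control (0.42, SE 0.21, and 0.25 without control replicate 2). Zfp473 had 133 and 99.95 in cKO, against 67.4 and 23.9 in control (1.49, SE 0.61), and 0.77 without control replicate 2. Over the list, both cKO values were above both control values in 6 of 20 (19.2% of all genes) and below both in 4 (19.5% of all genes). Slbp had 6011 and 6363 in cKO and 6694 and 7079 in control (-0.15, SE 0.18), and Npat, the activator of histone gene transcription, had 2111 and 1777 in cKO and 1578 and 1724 in control (0.23, SE 0.20); these 2 were named after their values were seen.

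S phase genes whose mRNAs carry a poly(A) tail had a smaller median than the histone genes with all 4 libraries, and a like one without control replicate 2. The 43 DNA replication genes summed to 260185 and 268459 normalized counts in the libraries labelled cKO, against 292725 and 292657 in those labelled control. Their median log2 fold change was -0.13, against -0.48 for the histone genes. It was -0.14 for both without control replicate 2. None of the 43 passed, and 35 were below 0 and 8 above. In 24 (55.8%) both cKO values were below both control values, against 19.5% of all genes. Rrm2, a subunit of ribonucleotide reductase, had 7838 and 7422 in cKO, against 10312 and 11103 in control (-0.49, SE 0.18). Tk1, thymidine kinase, had 4239.9 and 4270.3 in cKO, against 5609 and 5834 in control (-0.43, SE 0.18). Ccne1, cyclin E, had 1567 and 1522 in cKO, against 1751 and 3396 in control (-0.66, SE 0.31), and -0.18 without control replicate 2. The 20 genes of G2 and M phase had a median of -0.12, with 0 passing, and the smallest p-values were those of Ube2c, Plk1 and Ccnb2 (-0.51, -0.34 and -0.33), and -0.20, -0.39 and -0.18 without control replicate 2. The 19 histone chaperone genes had a median of -0.07 with 0 passing, led by Asf1b (-0.28), Hira (-0.28) and Nasp (-0.27, and -0.17 without control replicate 2).

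Histone genes outside the replication-dependent set were also lower on average, with less weight on 1 library. The 12 variant genes summed to 120671 and 135152 normalized counts in the libraries labelled cKO, against 148814 and 153155 in those labelled control. Of these 0 passed, 11 were below 0 and 1 above, and the median was -0.41, and -0.29 without control replicate 2. In 7 (58.3%) both cKO values were below both control values, against 19.5% of all tested genes. H1f0, the linker variant of non-dividing cells, had 2245 and 2637 in cKO, against 3349 and 3521 in control (-0.50, SE 0.19). H2aj had 3878 and 4768 in cKO, against 5307 and 6543 in control (-0.45, SE 0.21). H2az2, an H2A.Z gene, had 2851 and 3385 in cKO, against 3568 and 6406 in control (-0.62, SE 0.29), and -0.20 without control replicate 2. Most mRNAs of histone variants carry a poly(A) tail.

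Summed, other RNAs without a poly(A) tail were also highest in control replicate 2. The 38 listed small nucleolar and related RNAs summed to 1261 and 1440 normalized counts in the libraries labelled cKO, and to 1366 and 2846 in those labelled control. Control replicate 2 was the highest library for 25 of them, where it was so for 34.0% of all tested genes. It was also the highest for all 13 mitochondrial protein genes and all 12 erythroid markers. The log2 fold change of the 38 was below 0 for 28 (49.2% of all tested genes) and above 0 for 10, and 0 passed. The median was -0.44, and -0.05 without control replicate 2. Snora31 had 35.0 and 33.3 in cKO, against 49.9 and 104 in control (-1.06, SE 0.59), and -0.53 without control replicate 2. Snord83b had 68.9 and 54.0 in cKO, against 85.9 and 136 in control (-0.82, SE 0.48, and -0.49 without control replicate 2). Snord104 had 112 and 117 in cKO, against 120.02 and 392 in control (-0.92, SE 0.56), and -0.07 without control replicate 2. Many of these genes lie inside other genes, whose transcripts can add reads to them.

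**Figure D4:**
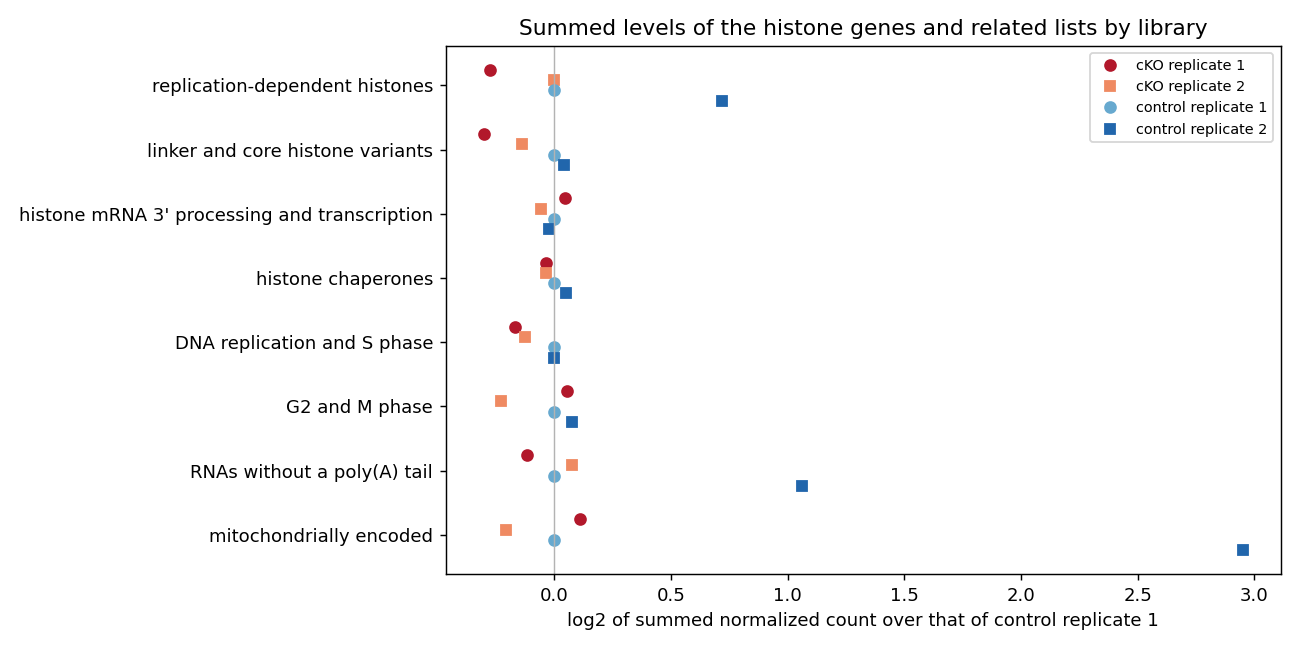
Log2 of the summed normalized count of the histone genes and 7 related lists in each library, over that of control replicate 1. Control replicate 2 stands at 0.72 for the histone genes, 1.06 for RNAs without a poly(A) tail and 2.95 for mitochondrial genes, and within 0.08 of control replicate 1 for the other 5 lists.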

How the data were processed

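The authors deposited 1 table of gene read counts divided by a DESeq2 size factor for each library, used here as a signal per gene. The submitters' processing notes name STAR 2.7.9a, Trim Galore 0.6.7, featureCounts, SAMtools, DESeq2 and mm39. The sources used here give no settings, annotation, strand or handling of reads that match several genes. Its columns headed WT were matched to the control samples by number. All values (100.0%, within 0.1 read) were whole multiples of 1 read, so reads were recovered by division. Most recovered counts of the histone genes were even numbers. Whether mates of a read pair were counted apart was not tested, and if they were, the counting intervals given are too narrow. The smallest sum over the 4 libraries was 41 reads, so genes below some minimum are not in it, and 15 further family symbols of RefSeq were not analysed here.

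The comparison was tested two-sided on log2(normalized count + 1) in limma 3.58.1 (R 4.3.3), using a mean-variance trend. The 16598 genes whose mean reached 10 were tested, with Benjamini-Hochberg adjustment at 0.05. The added 1 makes fold changes of low genes smaller. Residual degrees of freedom were 2, and the smallest p of an exact permutation test of these 4 libraries is 0.33. Replicates were distinct: their chi-square divided by its degrees of freedom was 37.7 in cKO and 293 in control. Nothing says whether p-values cover more than the spread between these samples. The smallest library held 28845037 reads, and no library was reduced to a common depth. Class sums and list medians have no test. The members and lists were chosen with earlier results of these data known. Named by rule were, per class, the 3 members with the highest mean and those with the lowest and highest fold change at a mean of at least 50, any member called, and up to 3 genes per related list by p-value. Alternatives were other pseudocounts, filters, scalings and variance settings, the replicate block, each library left out, edgeR 4.0.16 and DESeq2 1.42.0. The model steps were tested on simulated data. No simulated library stood apart from its group, so this does not show how the steps act with a library such as control replicate 2.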

Additional observations from a re-analysis of the deposited data

How the results depend on the processing

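The count of histone genes passing was 0 in both directions under every alternative run. Over all genes 5 were higher and 7 lower. The higher count was 2 with a mean of at least 50, with quantile normalization and with no variance trend, and DESeq2 gave 73 higher and 37 lower. Leaving out 1 library gave 4 to 231 higher and 8 to 161 lower, the most without control replicate 1. Without control replicate 2 there were 25 higher and 8 lower, and 26 were lower without cKO replicate 1 and 14 without cKO replicate 2. With the replicate number as a block they were 3 higher and 5 lower, and no histone gene passed. Libraries of the same number did not deviate together (correlation over genes -0.07), so the numbers were not taken as pairs.

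When 1 library was left out, the median of the histone genes (-0.48) lay between -0.94 and -0.14 and the H3 median (-0.50) between -1.01 and -0.39. The H3 median was -1.004 with a mean of at least 50, which leaves 1 gene. The log2 ratio of sums ran from -0.85 to -0.13 for all histone genes, from -1.21 to -0.36 for H1, from -0.98 to -0.16 for H2A and from -0.80 to -0.14 for H4. In each range the value nearest 0 came without control replicate 2, other than for the H3 median, where it came without cKO replicate 1. For each the cause was not tested. No scaling moved the median of all genes by more than 0.1.

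Some of the 16 named histone genes turned sign. With edgeR and DESeq2, H2bc4 had 0.0402 and 0.0246 and H3c11 0.20 and 0.18, and with quantile normalization H4c12 had -0.0868. Without control replicate 2, H1f3 had 0.29, H2bc4 0.06, H2bc21 0.09, H2bc11 0.16 and H4c12 -0.16. Without control replicate 1, H2ac6 had -0.21. Without cKO replicate 1, H2bc4 had 0.33, H3c11 0.80 and H4c12 -0.12, and without cKO replicate 2, H2bc21 had 0.14. Over the libraries left out, the ranges were -1.20 to 0.29 for H1f3, -0.21 to 1.41 for H2ac6, -0.28 to 0.14 for H2bc21 and -0.16 to 0.25 for H4c12. Depth limits the genes with few reads: a count of 2 reads has an exact Poisson 95% interval of 0.242 to 7.22. Such intervals cover counting error only and take reads as independent. H1f2 had 822 reads (767 to 880) in control replicate 1 and 1529 (1453 to 1608) in control replicate 2. There the spread between libraries was wider than counting error.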
